A study of Mus musculus with 32 samples.

Results

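The knockout effect on whole-brain transcript levels was compared between E14.5, an embryonic stage, and the day of birth (PND0) in mice that lack Dhcr7. The comparison took all 16 libraries of these 2 stages, of 32 in the series: 4 wild-type (WT, Dhcr7+/+) and 4 knockout (KO, Dhcr7-/-) whole brains at E14.5, and 4 of each at PND0. All brains were from C57BL/6J mice, and the labels name no treatment. Polyadenylated RNA was sequenced, so each value is a level over all cell types of the brain. Fewer cells of a type and less RNA per cell cannot be told apart in such samples. No source used here says that the 4 libraries of a group came from separate litters, so p-values measure the spread between these samples. The quantity tested is the stage difference: the KO minus WT log2 fold change at PND0 minus that at E14.5. A negative value means that the KO level, relative to WT, was lower at PND0 than at E14.5.

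Dhcr7 encodes 7-dehydrocholesterol reductase, which carries out the last step of one route of cholesterol synthesis. Its loss leaves cells short of cholesterol and rich in 7-dehydrocholesterol, and mutations in the human gene cause Smith-Lemli-Opitz syndrome. Low sterol in the endoplasmic reticulum releases the transcription factor SREBP-2, which switches on the enzymes of the pathway, while oxysterols activate the LXR receptors and their sterol export genes. Cholesterol is also needed for Hedgehog signalling, which patterns the embryonic brain. The brain makes nearly all of its own cholesterol after the blood-brain barrier closes, and between the 2 stages the mouse brain goes from making neurons to wiring them.

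The libraries held 17.27 to 28.32 M counts at E14.5 and 16.22 to 20.74 M at PND0. Dhcr7 itself checked the labels: its level in KO was 18.8% of WT at E14.5 and 16.1% at PND0, and the stage difference was -0.22 (SE 0.18, adjusted p = 0.604, edgeR quasi-likelihood test with Benjamini-Hochberg adjustment over all genes tested). Acte1, a gene beside Dhcr7, had 0 counts in all WT libraries and 2.91 to 5.19 CPM in the KO libraries. CPM is the count of a gene per M counts of the scaled library total. The spread between libraries of a group was larger at PND0, where the biological coefficient of variation was 16.6% against 6.25% at E14.5. The ribosomal RNA gene took 0.869% to 1.17% of the counts in 6 libraries at E14.5, 2.68% and 2.55% in E14.5 KO replicates 3 and 4, 1.8% to 2.78% in PND0 WT and 1.16% to 2.09% in PND0 KO. Both sexes were present in every group: Xist, expressed in females, was above the Y-linked Ddx3y in 1 of 4 libraries of each E14.5 group and in 2 of 4 of each PND0 group.

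Of 18802 genes tested for a stage difference, 110 passed an adjusted p of 0.05 (0.585% of the genes tested), 48 with a difference above 0 (0.255%) and 62 below 0 (0.33%). At an unadjusted p under 0.05 there were 3024. In the separate fit of each stage, 94 of 17837 genes differed between KO and WT at E14.5 (0.527%; 39 higher in KO, 0.219%, and 55 lower, 0.308%). At PND0 250 of 17420 genes differed (1.44%; 70 higher, 0.402%, and 180 lower, 1.03%). The stage differences were small: 91.8% were under 2-fold, with a median size of 0.498 on the log2 scale. In 108 of the 110 genes both stages gave an effect, and in all 108 the effect was the larger one at PND0. Effects were also larger at PND0 over all 16800 genes tested at both stages. Their median size was 0.066 at E14.5 and 0.167 at PND0. The KO and WT libraries did not overlap at PND0 in 108 of the 110 genes, against 12.4% of all genes at 1 CPM or more. At E14.5 they did not overlap in 14 of the 110, against 4.99% of those genes. The PND0 values entered the test, so this is a description of where the difference lay.

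**Figure D1:**
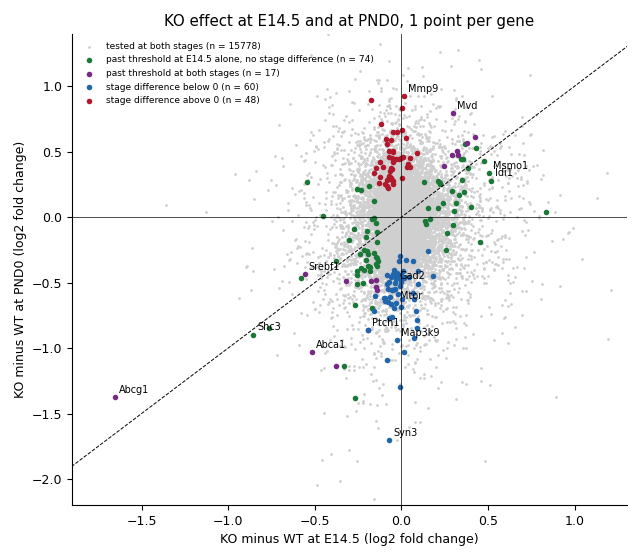
Knockout effect (log2 fold change, KO minus WT) of each gene at E14.5 on the horizontal axis and at PND0 on the vertical axis, for 15778 genes tested at both stages at 1 CPM or more, Dhcr7 and Acte1 left out, 12 genes outside the drawn range and the dashed line marking equal effects. Genes with a stage difference past the threshold (red above 0, blue below 0) lie near 0 at E14.5 and away from it at PND0, and most genes past the threshold at E14.5 alone (green) lie on the same side of 0 at both stages.

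Genes past the threshold at PND0 only made up most of the stage differences. Of 231 genes past the threshold at PND0 and not at E14.5 (62 higher and 169 lower in KO), 84 also had a stage difference past the threshold, 27 higher and 57 lower. The median size of the PND0 effect in these 84 was 0.535, and the median effect at E14.5 in the same direction was 0.00961. For 34 of the 84 the E14.5 estimate had the opposite sign. In 8 of the 84 the E14.5 groups did not overlap, against 4.99% of all genes at 1 CPM or more. The other 147, 63.6% of the 231, had a stage difference with an unadjusted p under 0.05 that failed adjustment, so a response at PND0 alone was not shown for them. Taken gene by gene, their E14.5 effect had a median of 13.7% of the PND0 effect. At E14.5, 53 of the 231 had an unadjusted edgeR p under 0.05, against 1557 of all 17837 genes tested there. Without such genes the 84 became 70, so a call at PND0 only does not mean no effect at E14.5. With all 32 libraries of the series in 1 fit, only 1 stage difference passed the threshold, and with DESeq2 635 did. All 110 kept their direction in the 32-library fit. That fit took the contrast from the same 16 libraries, so the kept direction is not a separate check.

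Mtor, Map3k9 and Lmtk2 had the smallest p of the genes with a stage difference below 0. Mtor, the catalytic subunit of the mTOR complexes that couple nutrients to growth, lies on chromosome 4 from 148448611 to 148557683 (GRCm38). Its level at E14.5 was 142, 146, 138 and 149 CPM in WT and 138, 138, 140 and 144.6 CPM in KO. At PND0 it was 143, 144, 161 and 143 CPM in WT and 97.0, 102, 85.3 and 89.7 CPM in KO. The groups were side by side at E14.5 and well apart at PND0, where KO stood at 63.4% of WT. The Mtor stage difference was -0.62 (SE 0.08, edgeR adjusted p = 0.00101), with a PND0 effect of -0.66 (SE 0.08) and an E14.5 effect of -0.03 (SE 0.04).

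Map3k9, a kinase upstream of JNK (chromosome 12, 81721010 to 81781175), had the same form. Its 4 WT and 4 KO libraries at E14.5 lay between 68.4 and 80.3 CPM. At PND0 it was 95.1, 79.2, 104 and 86.1 CPM in WT and 45.1, 51.2, 53.2 and 41.0 CPM in KO, 52.2% of WT. Its stage difference was -0.90 (SE 0.12, edgeR adjusted p = 0.00101). Lmtk2, a membrane kinase of endosome traffic (chromosome 5, 144100436 to 144188204), was higher at PND0 than at E14.5 in WT: it was 101.1 ± 2.0 CPM (SD, n = 4) in WT and 105.1 ± 1.9 in KO at E14.5, then 168.9 ± 7.48 in WT and 113.2 ± 11.2 in KO at PND0. The Lmtk2 stage difference was -0.64 (SE 0.09, edgeR adjusted p = 0.00101). Ksr2, a scaffold of the Raf-MEK-ERK cascade, was 53.15 ± 3.0 CPM in WT and 56.24 ± 3.04 in KO at E14.5, and 89.39 ± 4.08 in WT and 54.55 ± 7.64 in KO at PND0 (SD, n = 4). Its PND0 groups did not overlap, and the stage difference was -0.79 (edgeR adjusted p = 0.00189).

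Further genes with a PND0 response only were the actin and junction scaffold Amotl1 at 63.2% of WT, Soga1 at 58.9%, the glutamine transporter Slc38a1 at 65.3% and the uncharacterised gene 4931406P16Rik at 47.1%. At E14.5 these 4 stood at 93.3% to 95.7% of WT. Gad2, which makes the transmitter GABA, was 124, 112, 122 and 118 CPM in WT and 83, 91.1, 79 and 83.7 CPM in KO at PND0, and its 8 libraries at E14.5 overlapped between 130 and 146 CPM. Its stage difference was -0.46 (SE 0.08, edgeR adjusted p = 0.00949). Stage differences of 15 genes stayed past the threshold in all 16 fits that each left out 1 library, among them Mtor, Map3k9, Lmtk2, Ksr2, Amotl1, Soga1, Slc38a1, 4931406P16Rik, Gad2, Srgap3, Jcad and Gm43481 below 0, and Ddah2 and Gm15387 above 0. Each of the other 95 lost the call in at least 1 of the 16 fits. For all 95 the highest adjusted p came with an E14.5 library left out, E14.5 KO replicate 3 for 51 and E14.5 WT replicate 3 for 22, and it reached at most 0.141. The fit used a common spread per gene for both stages, although the spread between libraries was larger at PND0. The part of that in these losses was not tested. The count of all stage differences ran from 16 without E14.5 KO replicate 3 to 380 without PND0 WT replicate 4.

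Dync1h1, Trrap, Ubr4, Dnmt3a and Kif13a, lowered past the threshold at PND0 only, had long transcripts. Dync1h1, the heavy chain of the dynein motor, was 881.2, 845.5, 1094 and 858.1 CPM in WT and 635.5, 698.2, 696.1 and 648 CPM in KO at PND0, 72.8% of WT. At E14.5 it stood at 95.4% of WT, and the stage difference was -0.39 (SE 0.09, edgeR adjusted p = 0.0417). Trrap, a scaffold of histone acetyltransferase complexes, stood at 70.2% of WT at PND0 and 94.0% at E14.5. Ubr4, an E3 ubiquitin ligase, stood at 67.9% and 95.8%, the DNA methyltransferase gene Dnmt3a at 68.1% and 96.1%, and the kinesin gene Kif13a at 68.5% and 96.8%. Their stage differences lay between -0.42 and -0.50 with adjusted p values from 0.0262 to 0.0489. Nf1, a Ras GTPase-activating protein, had effects of opposite sign at the 2 stages and passed the threshold at neither (PND0 edgeR adjusted p = 0.123). Its KO libraries were above all WT libraries at E14.5, at 111.0% of WT, and below all of them at PND0, at 83.7%, with a stage difference of -0.40 (SE 0.09, edgeR adjusted p = 0.0495). With an offset for transcript length in the fit all 6 genes lost the call. The stage difference was then -0.16 for Dync1h1 (adjusted p = 0.337), -0.21 for Trrap, -0.25 for Ubr4, -0.31 for Dnmt3a, -0.36 for Kif13a and -0.20 for Nf1.

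**Figure D2:**
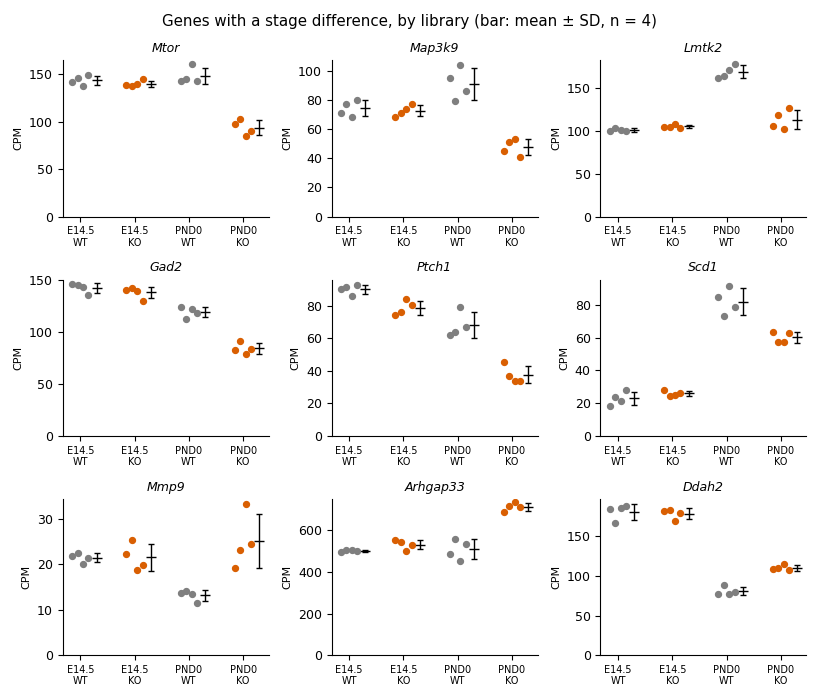
Levels (CPM, vertical axis from 0) of 9 genes with a stage difference past the threshold, with 1 point per library in the 4 groups and the mean ± SD (n = 4) beside each group. WT is grey and KO orange; for Mtor the E14.5 groups sit between 138 and 149 CPM and the PND0 KO libraries between 85.3 and 102 CPM, below all PND0 WT libraries.

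Of the genes that rose in KO at PND0 and had a stage difference, Ddah2 had the smallest p. Ddah2, a member of the dimethylarginine dimethylaminohydrolase family, lies on chromosome 17 from 35059035 to 35062095. It was 77.8, 88.9, 76.9 and 79.8 CPM in WT and 108, 110, 115 and 108 CPM in KO at PND0. At E14.5 its 8 libraries overlapped between 166 and 188 CPM. The stage difference was 0.47 (SE 0.08, edgeR adjusted p = 0.0101). Arhgap33, a GTPase-activating protein, was 508.7 ± 47.9 CPM in WT and 713.8 ± 20.1 in KO at PND0, and 502.5 ± 5.38 and 531.6 ± 22.1 at E14.5 (SD, n = 4). Its stage difference was 0.41 (edgeR adjusted p = 0.0225), with an adjusted p of 0.0791 without E14.5 KO replicate 3.

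Mmp9, a secreted gelatinase, had a stage difference of 0.92 (SE 0.19, edgeR adjusted p = 0.0293). At PND0 it was 13.6, 14.2, 13.5 and 11.4 CPM in WT and 19.1, 23.2, 33.2 and 24.5 CPM in KO, and at E14.5 both genotypes lay between 18.7 and 25.2 CPM. WT had less Mmp9 at PND0 than at E14.5, while the KO libraries at the 2 stages overlapped. Without E14.5 KO replicate 3 the adjusted p was 0.0905. Mmp9 is also a neutrophil product, and 5 of the 11 neutrophil markers were tested for a stage difference. The summed level of the list was 14 to 26.9 CPM in PND0 WT and 24.2 to 38.3 CPM in PND0 KO, mostly Mmp9 itself. The defining neutrophil marker S100a8 had 67 counts in PND0 WT and 65 in PND0 KO, Ngp had 79 and 61, and Elane had 0 in both.

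Among the 12 genes above 0 with the smallest p, Gm15387, Gm9800 and Ubb-ps are processed pseudogenes, whose reads can come from their parent genes, so their values are uncertain. Gm15387 stood at 8.694 ± 0.312 CPM in KO and 4.662 ± 0.873 in WT at PND0 (SD, n = 4), and its stage difference was 1.08 (edgeR adjusted p = 0.0124). Zfas1, a noncoding host of small nucleolar RNAs, was at 178.0% of WT at PND0 and 99.2% at E14.5, with a stage difference of 0.84 (edgeR adjusted p = 0.0416).

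A further 25 genes had a stage difference while neither stage passed its own threshold. In 23 of them the 2 effects had opposite signs, with the PND0 effect above 0 in 21. Oaz1, the antizyme of polyamine synthesis, was at 91.1% of WT at E14.5 and 124.0% at PND0, with a stage difference of 0.44 (edgeR adjusted p = 0.0239). Pcna, the clamp of DNA polymerase, stood at 93.7% and 122.0%. Emx1, a transcription factor of the cortical primordium, was 10.4 to 14.2 CPM in WT and 15.3 to 20.3 CPM in KO at PND0. Its stage difference was 0.70 (edgeR adjusted p = 0.047), and it was 0.134 without E14.5 KO replicate 3. The remaining 2 of the 25, Dbh among them, had too few counts to be tested at PND0 alone.

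Dbh and Slc6a5, genes of brainstem neurons, were among the 3 largest fitted stage differences of the 110, both on few counts, so that the fitted sizes depend on the prior count. Slc6a5, the glycine transporter of inhibitory brainstem and spinal cord neurons, had 22, 27, 81 and 114 counts in PND0 WT and 8, 8, 6 and 4 in PND0 KO. KO stood at 10.9% of WT at PND0 (95% exact interval for counting error 6.95% to 16.3%) and at 71.3% at E14.5 (59.9% to 84.8%), and the stage difference had an edgeR adjusted p of 0.0444. Dbh, the enzyme that makes noradrenaline, had 4, 26, 53 and 51 counts in PND0 WT and 0, 4, 1 and 2 in KO, with an edgeR adjusted p of 0.0444. Both Slc6a5 and Dbh lost the call in most of the fits that left out 1 library, holding in 3 and 6 of 16, with adjusted p values up to 0.12 without E14.5 KO replicate 3 for Slc6a5 and 0.112 without E14.5 WT replicate 3 for Dbh.

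Over the whole list of glycinergic and brainstem neuron genes, 15 of 16 were tested. Of the 15, 0 had a stage difference above 0, against 49.2% of all genes tested. The threshold was passed by 3 of them, Slc6a5 and Gad2 included, against 0.585% of all genes tested. The median stage difference was -0.426, against -0.00528 over all genes tested, with a median KO effect of -0.0108 at E14.5 and -0.437 at PND0. The summed level was 558 to 614 CPM in PND0 WT and 436.5 to 505.7 CPM in PND0 KO, and the E14.5 groups overlapped. Between 88.2% and 93.8% of that level at PND0 came from 5 genes that are used widely in the brain: Gad1, Gad2 and Slc32a1 of GABA neurons, the glycine receptor subunit gene Glrb and the glycine transporter gene Slc6a9. The other 11 genes summed to 47.0 to 66.1 CPM in PND0 WT and 27.2 to 49.9 CPM in PND0 KO, which overlap. Isl1 alone held 14.3 to 31.7 CPM of this in PND0 WT and 11.2 to 30.5 CPM in PND0 KO. Hox genes mark hindbrain and spinal cord. Over 19 Hox genes the PND0 counts were 4, 3, 14 and 94 in WT and 0, 1, 5 and 4 in KO, and 7 of the 19 had no count in any PND0 library. PND0 WT replicate 4 held 94 of the 115 WT counts, so the Hox counts were uneven within 1 group. The part of caudal tissue in the brainstem result was not tested. Without PND0 WT replicate 4 the median stage difference of the list was -0.46, with 3 genes past the threshold.

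**Figure D3:**
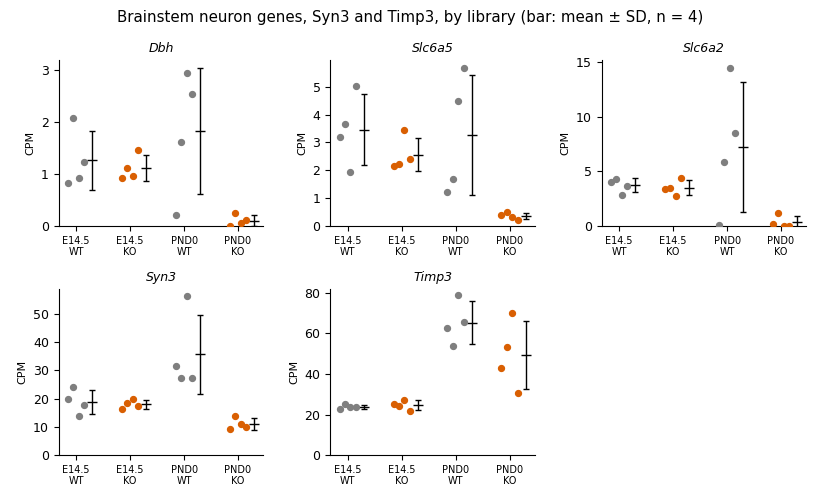
Levels (CPM, vertical axis from 0) of Dbh, Slc6a5 and Slc6a2 (genes of brainstem neurons), Syn3 and Timp3, with 1 point per library in the 4 groups and the mean ± SD (n = 4). The PND0 KO libraries of Slc6a5 and Syn3 lie below all PND0 WT libraries, those of Slc6a2 and Timp3 overlap with WT, and the WT libraries of Slc6a2 are spread from 0.112 to 14.4 CPM.

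Slc6a2, the noradrenaline transporter, showed how uneven these levels were. It had 2, 94, 260 and 170 counts in PND0 WT and 4, 19, 0 and 0 in KO, and its stage difference had an edgeR adjusted p of 0.146. Syn3, a synaptic vesicle phosphoprotein (chromosome 10, 86055125 to 86498896), fell at PND0 to 30.7% of WT. It was 31.4, 27.4, 56.2 and 27.3 CPM in WT and 9.14, 13.8, 10.9 and 9.90 CPM in KO, while at E14.5 both genotypes overlapped between 13.9 and 23.9 CPM. The stage difference was -1.63 (SE 0.31, edgeR adjusted p = 0.0293), and its adjusted p was 0.0905 without E14.5 KO replicate 3. Timp3, an inhibitor of metalloproteinases whose gene lies within an intron of Syn3, had overlapping groups at both stages and a stage difference of -0.45 (edgeR adjusted p = 0.433). Reads of the 2 genes could be mixed if strand was not used in counting, which the sources used here do not give.

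Several PND0 responses that looked confined to birth by their calls did not pass the test of the difference. Nrgn, a calmodulin-binding protein of dendritic spines, was 100.4, 96, 71.6 and 65.3 CPM in WT and 135, 126.8, 165.1 and 130.1 CPM in KO at PND0, but its level at E14.5 was only 4.98 to 7.98 CPM over both genotypes. Its stage difference was 0.64 (SE 0.23, edgeR adjusted p = 0.172). Zfp382, a zinc finger gene, stood at 29.1% of WT at PND0 and 80.3% at E14.5, with a stage difference of -1.47 (adjusted p = 0.0629), and its WT replicate 3 at 10.7 CPM was above the other WT libraries at 4.17 to 4.91. Robo1, a receptor of the guidance cue Slit, was 219.6 to 241.1 CPM in WT and 155.1 to 188.6 in KO at PND0. KO was below WT in all libraries of both stages, and its stage difference was -0.30 (adjusted p = 0.0822). The sodium channel gene Scn8a, the adhesion gene Nrxn3, the Wnt regulator Znrf3, the GABA-A subunit gene Gabrg1 and the dioxygenase gene Tet3 stood at 68.5% to 77.2% of WT at PND0 and 92.7% to 96.3% at E14.5. Their stage differences had adjusted p values from 0.0723 to 0.179.

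Genes that responded at E14.5 only could not be named with a stage difference. Past the threshold at E14.5 and not at PND0 were 75 genes, 31 higher and 44 lower in KO. Of these, 0 had a stage difference past the threshold with edgeR, and the smallest adjusted p was 0.0642. At an unadjusted edgeR p under 0.05 there were 13 of the 75, against 3024 of all 18802 genes tested. With DESeq2, 4 genes of this class had a stage difference past the threshold: Ets1, Pclo, Ptgds and Snrpb. For 61 of the 74 genes also tested at PND0 the effect had the same sign at both stages. At PND0 39 had an unadjusted edgeR p under 0.05, against 3130 of all 17420 genes tested there. Taken gene by gene, the PND0 effect had a median of 93.9% of the E14.5 effect. The median size was 0.238 at E14.5, and the median PND0 effect in the same direction was 0.27. The median SE of these effects was 0.044 at E14.5 and 0.117 at PND0.

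Shc3, a neuronal adaptor of receptor tyrosine kinases, is an example. It was 15.7, 13.5, 13.3 and 11.7 CPM in WT and 7.48, 6.68, 7.28 and 8.47 CPM in KO at E14.5, and 11.2, 12.7, 31.3 and 13.4 CPM in WT and 9.67, 10.4, 9.04 and 7.75 CPM in KO at PND0. KO was at 55.1% of WT at E14.5 and 53.7% at PND0, yet the PND0 adjusted p was 0.142. One WT library, replicate 3, stood at 31.3 CPM. The zinc finger gene Zfp169 stood at 58.6% and 55.4% of WT, with an adjusted p of 0.0614 at PND0. Olig1, a transcription factor of the oligodendrocyte lineage, came nearer to a response at E14.5 alone: KO was 72.6% of WT at E14.5 and 101.0% at PND0, with a stage difference of 0.47 (edgeR adjusted p = 0.212). Snrpb, a core spliceosome protein, was 87.5% and 118.0% of WT, with a stage difference of 0.44 and the smallest adjusted p of this class. Pclo, the presynaptic scaffold piccolo, was 122.0% and 96.2% of WT, with a stage difference of -0.35 (edgeR adjusted p = 0.111).

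Mapkapk5, a kinase downstream of p38, had estimates of opposite sign at the 2 stages. It was 9.28, 7.79, 9.4 and 7.9 CPM in WT and 6.65, 6.18, 4.91 and 5.5 CPM in KO at E14.5, and 3.08 to 7.8 CPM over both genotypes at PND0. KO stood at 67.6% and 120.0% of WT, and the stage difference was 0.83 (SE 0.29, edgeR adjusted p = 0.156). The predicted gene 9030025P20Rik had the largest increase of the class, at 178.0% of WT at E14.5 and 103.0% at PND0, with an adjusted p of 0.293. Lhx6, a transcription factor of cortical interneurons, stood at 83.3% and 116.0%, with PND0 WT libraries spread from 47.3 to 81.4 CPM (adjusted p = 0.242). Scd2, the main desaturase of the developing brain, was 1190, 1205, 1234 and 1289 CPM in WT and 999, 994.1, 977.7 and 995.7 CPM in KO at E14.5. At PND0 the groups overlapped, KO stood at 88.4% of WT, and the stage difference was 0.13 (SE 0.08, adjusted p = 0.457).

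The list of cholesterol synthesis genes, targets of SREBP-2, held no gene with a stage difference past the threshold. By calls alone, those past it at E14.5 and not at PND0 were among the 75 genes above. All 20 were above 0 in KO at both stages, with a median effect of 0.34 at E14.5 and 0.356 at PND0. The threshold was passed by 14 of them in the E14.5 fit, against 0.527% of all genes tested. In the PND0 fit 4 passed (Acat2, Mvd, Tm7sf2 and Nsdhl), against 1.44%. A stage difference past the threshold was found in 0, against 0.585%. The median stage difference was 0.0162, and 10 of the 20 were above 0, against 49.2% of all genes tested. Hmgcs1, the synthase at the pathway's start, was 395, 407, 389 and 392 CPM in WT and 537, 593, 522 and 537 CPM in KO at E14.5. At PND0 it was 737, 696, 795 and 464 CPM in WT and 893, 894, 892 and 946 CPM in KO. The groups did not overlap at either stage, KO was 138.0% and 135.0% of WT, and the stage difference was -0.04 (SE 0.16, edgeR adjusted p = 0.941). Idi1, the isopentenyl isomerase, stood at 142.0% and 121.0% of WT, and Msmo1, the sterol methyl oxidase, at 141.0% and 126.0%. For each of them the PND0 groups overlapped and the PND0 test did not pass (adjusted p = 0.509 and 0.266). Mvd, the decarboxylase that forms isopentenyl diphosphate, had the smallest p of the list. Its level in KO was 122.0% of WT at E14.5 and 173.0% at PND0, and the stage difference was 0.51 (SE 0.15, edgeR adjusted p = 0.0995).

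PND0 WT replicate 4 was low for several of these enzymes. It had 110 CPM of Fdft1, the squalene synthase, against 167 to 172 CPM in the other PND0 WT libraries, and 60.0 CPM of Dhcr7 against 95.6 to 102. Without it the median effect of the list at PND0 was 0.249, and 3 members passed the threshold at PND0. Of the other SREBP-2 targets, the sterol sensor partner Insig1 passed at both stages, at 133.0% and 153.0% of WT. In this list 12 of 15 were above 0 in stage difference, against 49.2% of all genes tested, and 0 passed the threshold.

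The LXR targets held both kinds of pattern. Abcg1, a sterol exporter, was 33.1, 29.4, 30.1 and 32 CPM in WT and 10.3, 10.9, 8.91 and 9.03 CPM in KO at E14.5, and 38.4, 33.0, 29.0 and 43.1 against 13.0, 15.1, 14.7 and 12.6 CPM at PND0. It was the most lowered of the genes called at both stages other than Dhcr7, and its stage difference was 0.29 (SE 0.16, edgeR adjusted p = 0.389). Abca1, the exporter to lipid-poor apolipoproteins, stood at 69.8% of WT at E14.5 and 48.9% at PND0 (stage difference -0.51, SE 0.16, adjusted p = 0.128), and Srebf1 at 67.5% and 74.1%. Of the 13 LXR targets, 8 had a stage difference above 0, against 49.2% of all genes tested. Scd1, a stearoyl-CoA desaturase, was the 1 member of 13 with a stage difference past the threshold, against 0.585% of all genes tested. It was 18.4, 24.0, 21.1 and 28.2 CPM in WT and 27.9, 24.6, 25.2 and 26.1 CPM in KO at E14.5, where the groups overlapped. At PND0 it was 84.7, 73.1, 91.9 and 78.7 CPM in WT and 63.3, 57.4, 57.4 and 63.1 CPM in KO. The stage difference was -0.62 (SE 0.14, edgeR adjusted p = 0.0425), and it lost the call in 10 of the 16 fits that left out 1 library, with an adjusted p up to 0.12 without E14.5 WT replicate 3.

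Among the genes called at both stages, 8 were higher and 11 lower in KO, and each had the same direction at both. Ptch1, the Hedgehog receptor and a direct target of the pathway (chromosome 13, 63508328 to 63573598), was the only one of the 19 with a stage difference past the threshold. Its E14.5 level was 90.4, 91.6, 86.1 and 92.5 CPM in WT and 74.0, 76.0, 84.1 and 80.3 CPM in KO. At PND0 it was 62.0, 64.1, 79.5 and 67.2 CPM in WT and 45.2, 36.8, 34.0 and 34.0 CPM in KO. KO libraries were below all WT libraries at both stages, at 87.2% of WT at E14.5 and 55.0% at PND0. The stage difference was -0.66 (SE 0.12, edgeR adjusted p = 0.0147), held in 14 of the 16 fits without 1 library, and had an adjusted p of 0.0643 without E14.5 KO replicate 3. Of the 15 genes of the Hedgehog list, 9 were above 0, against 49.2% of all genes tested. The median stage difference was 0.0572, and Ptch1 alone passed, against 0.585% of all genes tested. Gli3, a transcription factor of the pathway, and the coreceptor Cdon passed at E14.5 only, with stage differences of 0.06 (adjusted p = 0.907) and 0.11 (adjusted p = 0.628).

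Other genes called at both stages kept their direction with effects that were larger at PND0 by the estimates. Higher in KO were Stmn4, a tubulin regulator of neurons, at 122.0% of WT at E14.5 and 139.0% at PND0, Aacs, which makes acetoacetyl-CoA for lipid synthesis, at 124.0% and 142.0%, and Pcyt2, of phosphatidylethanolamine synthesis, at 118.0% and 131.0%. Lower were Prdm11 at 76.5% and 45.7%, Zfp462 at 90.1% and 68.2%, Glg1 at 89.7% and 69.1%, Dido1 at 88.1% and 71.4% and the endothelial receptor gene Heg1 at 79.7% and 71.3%. For Prdm11 the libraries were 11.9, 11.8, 18.4 and 14.7 CPM in WT and 5.54, 8.79, 5.73 and 5.88 CPM in KO at PND0. The stage difference of Prdm11 was -0.75 (SE 0.21, edgeR adjusted p = 0.0908), and those of the other 7 had adjusted p values from 0.114 to 0.537.

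**Figure D4:**
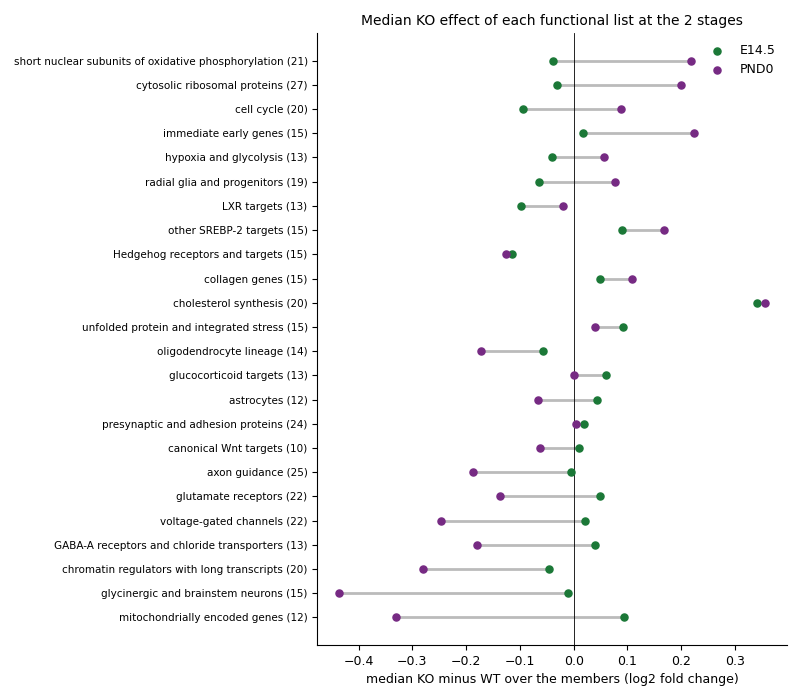
Median KO effect (log2 fold change, KO minus WT) over the members of each functional list at E14.5 (green) and at PND0 (purple), for lists with 5 or more members tested for a stage difference, that number in brackets and the lists in order of their median stage difference. Cholesterol synthesis lies at 0.34 and 0.356, ribosomal proteins and short respiratory chain subunits move up at PND0, and brainstem, channel, chromatin and mitochondrially encoded genes move down.

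Ribosomal protein genes, with short transcripts, and chromatin regulators with long transcripts lay on opposite sides of 0 in stage difference. Not every list followed its length. Over all genes tested, 49.2% had a stage difference above 0 and 0.585% passed the threshold. Of the 27 cytosolic ribosomal protein genes listed all 27 had a stage difference above 0, with a median of 0.261. Rplp1 and Rps18 passed the threshold. The list is a part of the family, and ribosomal protein genes outside it passed as well. Rplp1 was 253 to 318 CPM in WT and 322 to 392 CPM in KO at PND0, and 316 to 358 and 300 to 323 CPM at E14.5. Short nuclear subunits of oxidative phosphorylation were above 0 in 20 of 21, with a median of 0.277, and 0 passed. Of 20 chromatin regulators with long transcripts 0 were above 0, with a median of -0.236, and Kmt2a and Ash1l, both histone methyltransferases, passed. With length offsets their stage differences were -0.18 (edgeR adjusted p = 0.347) and -0.15 (adjusted p = 0.451). Kmt2a was 224, 241, 262 and 235 CPM in WT and 184, 170, 150 and 180 CPM in KO at PND0, and 94.6% of WT at E14.5. Voltage-gated channels had a median of -0.189 with 4 of 22 above 0, and 1 passed. Ash1l held in 7, Kmt2a and Rps18 in 8 and Rplp1 in 12 of the 16 fits without 1 library. Axon guidance genes had a median of -0.17 with 3 of 25 above 0, and GABA-A receptor genes -0.216 with 1 of 13 above 0. In both lists 0 passed. Mitochondrially encoded transcripts, which are short, had a median of -0.485 with 1 of 12 above 0, and 0 passed. Collagen genes, which are long, had a median of 0.0551.

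In the next 10 functional lists 0 genes passed the threshold, against 0.585% of all genes tested, of which 49.2% were above 0. The medians were -0.179 over 22 glutamate receptor genes (5 above 0), -0.158 over 10 Wnt targets (2 above 0), 0.147 over 19 radial glia genes (13 above 0), -0.0804 over 14 oligodendrocyte genes (4 above 0) and -0.104 over 12 astrocyte genes (4 above 0). They were -0.0914 over 13 glucocorticoid targets, 0.155 over 13 hypoxia and glycolysis genes, 0.187 over 15 immediate early genes, 0.00883 over 15 genes of the unfolded protein and integrated stress responses and 0.0551 over the 15 collagen genes. Presynaptic and adhesion genes had a median of -0.113 over 24, with Syn3 past the threshold.

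Transcript length moved with the stage difference. The median longest annotated transcript was 3066 nucleotides over the genes tested, 1730 over the 48 genes called above 0 and 7435.5 over the 62 called below 0. Of 2275 tested genes at 6000 nucleotides or more, 42 were called below 0 and 1 above 0, and of 5163 below 2000 nucleotides, 3 were called below 0 and 28 above 0. The median PND0 effect was 0.121 for short and -0.153 for long transcripts, against -0.0089 and 0.001 at E14.5. By library, the median deviation of long minus short transcripts was 0.168, 0.0395, 0.198 and 0.0724 in PND0 WT and -0.14, -0.122, -0.25 and -0.0529 in PND0 KO. The 2 PND0 groups did not overlap, while the 8 libraries at E14.5 lay between -0.0425 and 0.0631 with both genotypes mixed.

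With a library-specific offset for length in the fit, 13 stage differences passed the threshold, all of them among the 110. Among them were Mtor, Map3k9, Lmtk2, Ksr2, Soga1, Jcad, Slc16a14, Otx1, 4931406P16Rik and the predicted gene Gm43481, with Arhgap33 and Gm15387. All 110 kept their direction. Mtor had -0.46 (adjusted p = 0.0122) in that fit, Map3k9 -0.83 (adjusted p = 0.00873), Ptch1 -0.47 (adjusted p = 0.0817) and Syn3 -1.55 (adjusted p = 0.0583). The median over ribosomal protein genes was then 0.161 and over long chromatin regulators -0.0506, while brainstem genes stood at -0.39 and mitochondrially encoded genes at -0.614. With the share of the ribosomal RNA gene as a covariate 5 passed, Mtor, Map3k9, Lmtk2 and 4931406P16Rik among them. In that fit Mtor had -0.57 and Map3k9 -0.84. Genes that lost the call there included Ptch1 at -0.60 (edgeR adjusted p = 0.237) and Syn3 at -1.57 (adjusted p = 0.271). Mmp9 also lost it, and its estimate went from 0.92 to 0.65 (adjusted p = 0.356). The part of RNA quality in the length pattern was not tested.

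**Figure D5:**
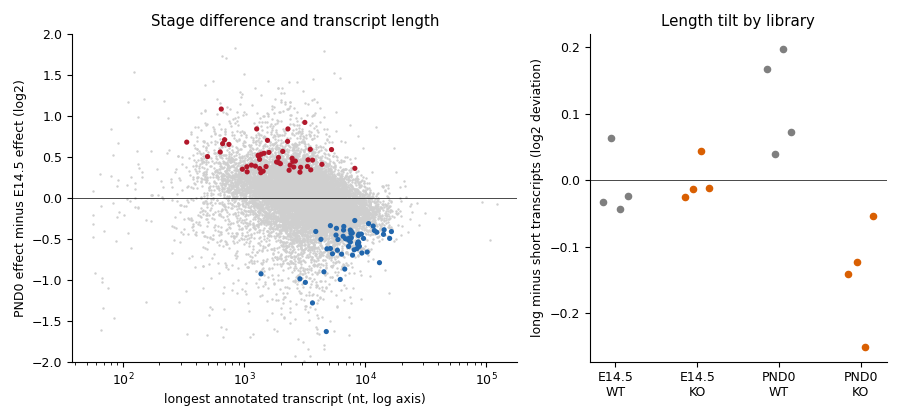
Left, stage difference (PND0 effect minus E14.5 effect, log2) of each gene at 1 CPM or more against its longest annotated transcript (nucleotides, log axis), with genes past the threshold in red (above 0) and blue (below 0). Right, median log2 deviation of long (6000 nucleotides or more) minus short (below 2000) transcripts, 1 point per library: PND0 WT libraries are above 0, PND0 KO libraries below 0, and the E14.5 libraries of both genotypes lie between -0.0425 and 0.0631.

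Markers of other tissues and regions were checked for the same contrast. Over all genes tested, 49.2% had a stage difference above 0 and 0.585% passed the threshold. Erythroid genes, led by the adult globins, summed to 193.4 to 259.3 CPM in PND0 WT and to 543.3, 228.9, 2248 and 616 CPM in PND0 KO, so erythroid transcripts were uneven among the KO libraries and highest in replicate 3. Of 10 tested erythroid genes 8 were above 0 and 0 passed the threshold, with a median of 1.56, and 0.933 without PND0 KO replicate 3. Cortex markers had a median of 0.188 with Emx1 past the threshold, and -0.293 was the median over 9 cerebellum markers, of which 0 passed. Summed cortex markers were 1085 CPM in PND0 KO replicate 3 and 2164 CPM in replicate 4, a wider range than in PND0 WT (1136 to 1547 CPM). Of 20 cell cycle genes 18 were above 0, with a median of 0.195, and Pcna alone passed. Microglia markers had a median of 0.187 over 13 genes, endothelium 0.0402 over 12, choroid plexus -0.0178 over 9, meninges -0.0784 over 10, striatum 0.198 over 14 and hypothalamus -0.235 over 10, with 0 past the threshold in each. The lists of pituitary, muscle, cartilage, skin and eye genes had 4 to 6 tested members and 0 past it. The part of blood and of brain region in the stage differences was not tested.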

How the data were processed

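The deposited tables, 1 for each stage, hold raw counts, not normalized, for 55291 gene symbols. Per the submitters' processing notes, HISAT2, SAMtools, featureCounts and DESeq2 were used with build mm10. Versions, annotation and strand setting are not given in the sources used here. Paired reads of polyadenylated RNA were sequenced, per the labels.

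Stage differences were fitted on the counts of all 16 libraries with edgeR 4.0.16 in R 4.3.3 (TMM scaling, filterByExpr with minimum count 10 and total 15, robust quasi-likelihood F test). Each stage was also fitted on its own 8 libraries. Genes passed at a p under 0.05 after Benjamini-Hochberg adjustment over every gene in the fit. A count of 0 allows up to 3 counts, 0.106 to 0.185 CPM by library. Such limits and the exact intervals cover counting error only. No libraries were copies: over 24 pairs within groups, chi-square per degree of freedom ran from 2.899 to 30.06. Positions and lengths are from GENCODE M21 (GRCm38), matching 53180 symbols by name and 370 by synonym.

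Named genes are Dhcr7, Acte1, the 12 genes with the smallest p in each direction at 1 CPM or more, the 5 largest increases and decreases at 1 stage only, all genes called at both stages, and, from each list, members past a threshold or with the smallest p. Dbh, Slc6a2, Timp3, Snrpb, Dync1h1, Trrap, Ubr4, Dnmt3a, Kif13a and Nf1 were added after their values were seen, and Srgap3, Slc16a14 and Otx1 are named as part of small counts. Some genes within the counts are not reported here by name. Members, lists and tests were chosen with earlier results of these data known. Alternatives were RLE size factors, no filter, DESeq2 1.42.0, limma 3.58.1 (voom with group weights), a replicate block, all 32 libraries, length offsets, covariates, and each library left out. The scripts were tested on simulated data.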

Additional observations from a re-analysis of the deposited data

Results flagged for a closer look

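The stage difference itself was past the threshold for 110 genes, which are those described above.

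Over 137 named genes and 4 groups of 4 libraries, 33 of 548 groups (6.02%) held a library whose gap to its nearest neighbour was a share of the group's range above Dixon's 95% critical value. Chance flags about 1 in 20 groups. In PND0 WT replicate 4 the flagged values were low for sterol genes: Dhcr7 at 60.0 CPM, Msmo1 at 65.6, Fdft1 at 110.0 and Sqle at 148.0. Tet3 in that library was at 223.0 CPM. In PND0 WT replicate 3 they were high for Mtor at 161.0 CPM, Shc3 at 31.3, Zfp382 at 10.7, Syn3 at 56.2, 2610507B11Rik at 233.0, Glg1 at 260.0, Dync1h1 at 1090.0 and Ubr4 at 461.0. In other PND0 WT libraries Lurap1 stood at 12.1 CPM (replicate 1) and Pcyt2 at 99.3 (replicate 2).

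In PND0 KO the flagged values were Pomc at 2.33 CPM in replicate 1, Prdm11 at 8.79 and Slc6a2 at 1.22 in replicate 2, Jcad at 27.3 and Slc38a1 at 172.0 in replicate 3, and Ubb-ps at 30.8, Oaz1 at 173.0 and Hmgcs1 at 946.0 in replicate 4. At E14.5 they were Oaz1 at 250.0 CPM and Otp at 53.4 in WT replicate 1, and Ddah2 at 166.0 and Cfl1 at 687.0 in WT replicate 2. In E14.5 KO they were the Y-linked Ddx3y at 0.0 CPM in replicate 1, the library of that group with Xist at 753 CPM, Tm7sf2 at 53.5 and Trrap at 346.0 in replicate 2, Zfas1 at 20.9 in replicate 3 and mt-Cytb at 2840.0 in replicate 4.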

How the results depend on the processing

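Against 110 stage differences, no filter on low counts gave 663, DESeq2 635, voom with group weights 243, length offsets 13, length offsets with the replicate block 15, the ribosomal RNA covariate 5, all 32 libraries 1, and leaving out E14.5 KO replicates 3 and 4 together 8. These counts for genes with a PND0 response only (main 84) were 477, 447, 128, 10, 13, 0, 1 and 7, with 55 under a sex-gene covariate and 327 at a threshold of 0.1. For an E14.5 response only (main 0) they were 14 without the filter, 4 with DESeq2, 1 with voom, 1 with the replicate block and 5 at 0.1. The PND0 count of 250 became 1091 without the filter, 921 with DESeq2, 1205 with all 32 libraries, 2197 in the 16-library fit, 47 with length offsets, 79 with length offsets and the block, and 2 with the ribosomal RNA covariate. The E14.5 count of 94 became 146 without the filter, 4 with all 32 libraries, 4 in the 16-library fit and 173 with length offsets and the block. With 1 library left out, the stage differences ran from 16 to 380: E14.5 WT replicates 1, 3 and 4 gave 30, 17 and 19, E14.5 KO 1 to 4 gave 21, 38, 16 and 30, PND0 WT 2, 3 and 4 gave 378, 52 and 380, and PND0 KO 4 gave 273. PND0-only responses ran from 15 to 176, E14.5-only from 0 to 4, PND0 calls from 35 to 263 and E14.5 calls from 52 to 155. The cause was not tested. Replicate numbers did not pair the libraries (correlation of same-numbered deviations -0.0747 to 0.107), and the replicate block gave 109 stage differences, 77 of them among the 110, so that 33 lost the call.

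Length offsets moved the medians of presynaptic genes to 0.0349, voltage-gated channels to -0.0363, axon guidance to -0.00866, ribosomal proteins to 0.161 and long chromatin regulators to -0.0506. Medians with 1 library left out ranged from 0.0322 to 0.158 (LXR), -0.376 to -0.0185 (Wnt), -0.611 to -0.278 (brainstem), 0.072 to 0.194 (radial glia), -0.146 to -0.0474 (oligodendrocyte), -0.00404 to 0.132 (unfolded protein), 0.933 to 2.11 (erythroid), -0.1 to 0.0756 (endothelium), -0.141 to 0.0246 (meninges), -0.476 to 0.374 (pituitary), 0.336 to 0.78 (muscle), -0.154 to 0.286 (skin), -0.022 to 0.368 (eye), -0.378 to -0.0691 (cerebellum) and -0.00537 to 0.37 (cortex). The Hox value, -6.03 to -2.71, is Hoxa2 alone, with 0 counts in PND0 KO. No named gene's stage difference reversed past the threshold. Chosen after seeing the data were the 16-library stage effects, E14.5 KO replicates 3 and 4 left out, and length offsets with the block.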
